A study of Homo sapiens with 4 samples.

Results

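Interferon-stimulated genes are the genes that cells switch on when type I interferon binds its receptor. The set described here holds 39 of them, effectors and regulators of the type I response, picked by gene symbol from a table of 26255 genes, and all 39 were found there. The table covers RNA-seq of A549, an established human lung adenocarcinoma cell line, in 4 libraries with 1 library per group. The solid tumor and acinar tumor libraries are A549 cells cut by laser microdissection from xenografts in immunodeficient mice, where solid areas grow as sheets and acinar areas form gland-like structures. The single culture and mix culture libraries are GFP-labelled A549 cells sorted from 3D colonies. The single culture was read as grown without cancer-associated fibroblasts (CAFs), stromal fibroblasts of a tumor, and the mix culture as grown with them, since the protocols name no other condition. All 4 groups are the same line, no interferon was given as far as the labels say, and the sources used here do not say whether the solid and the acinar areas lay in the same mouse.

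In the textbook pathway, sensors of foreign nucleic acid in the cytoplasm and endosomes lead to the production of interferon. Secreted interferon binds the receptor made of IFNAR1 and IFNAR2, the kinases JAK1 and TYK2 phosphorylate STAT proteins such as STAT2, and these join IRF9 to form a complex that binds the interferon-stimulated response element (ISRE) in the promoters of its target genes. The products block virus entry, translation or replication, and several sense viral RNA themselves, so that the response feeds on itself. Tumor cells can express some of these genes without any infection. Whether a lower level comes from fewer cells of a type or from less RNA per cell cannot be told apart in bulk libraries.

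The libraries held an estimated 7265458 fragments (solid tumor), 6632999 (acinar tumor), 10965216 (single culture) and 12184275 (mix culture). Levels are given as scaled counts, the deposited values over the same constant of 8.94 in every library, and they are not corrected for gene length. A count of 3 fragments, taken as the limit of detection, stood for 0.420, 0.465, 0.267 and 0.242 scaled counts in that order of libraries. All 5 epithelial markers were at 1 scaled count or more in every library, KRT8 and KRT18 at 1554 or more and EPCAM between 2.09 and 28.1. Of 10 fibroblast markers 3 reached 1 scaled count in each library, the sum of all 10 being 54.1 and 88.8 in the solid and acinar tumors and 23.1 and 33.7 in the single and mix cultures, and POSTN was listed at 0 in all 4. Without replicates none of the differences could be tested, so they carry no p-value. Folds of single genes are simple quotients of scaled counts with exact conditional binomial (Clopper-Pearson) 95% intervals, which cover counting error only.

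Of the 39 genes, 35 reached 1 scaled count in at least 1 library. The 4 that did not were MX2, a GTPase that blocks nuclear entry of retroviruses, RSAD2, which encodes the antiviral enzyme viperin, BST2, which encodes the virus tether tetherin, and the apoptosis factor gene XAF1. RSAD2 was listed at 0 in all 4 libraries, MX2 and XAF1 had fewer than 3 fragments in each, and BST2 had 4, 1, 3 and 2 fragments in the solid tumor, acinar tumor, single and mix cultures. Together the 39 genes took 0.120% of the solid tumor fragments (Wilson 95% interval 0.118% to 0.123%), 0.131% of those of the acinar tumor (0.128% to 0.133%), 0.0827% of the single culture (0.0810% to 0.0844%) and 0.0750% of the mix culture (0.0734% to 0.0765%). OAS1 and ISG20, chosen after their values were seen, made up most of the step between tumors and cultures: without them the shares were 0.0819%, 0.0815%, 0.0769% and 0.0693%.

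**Figure D1:**
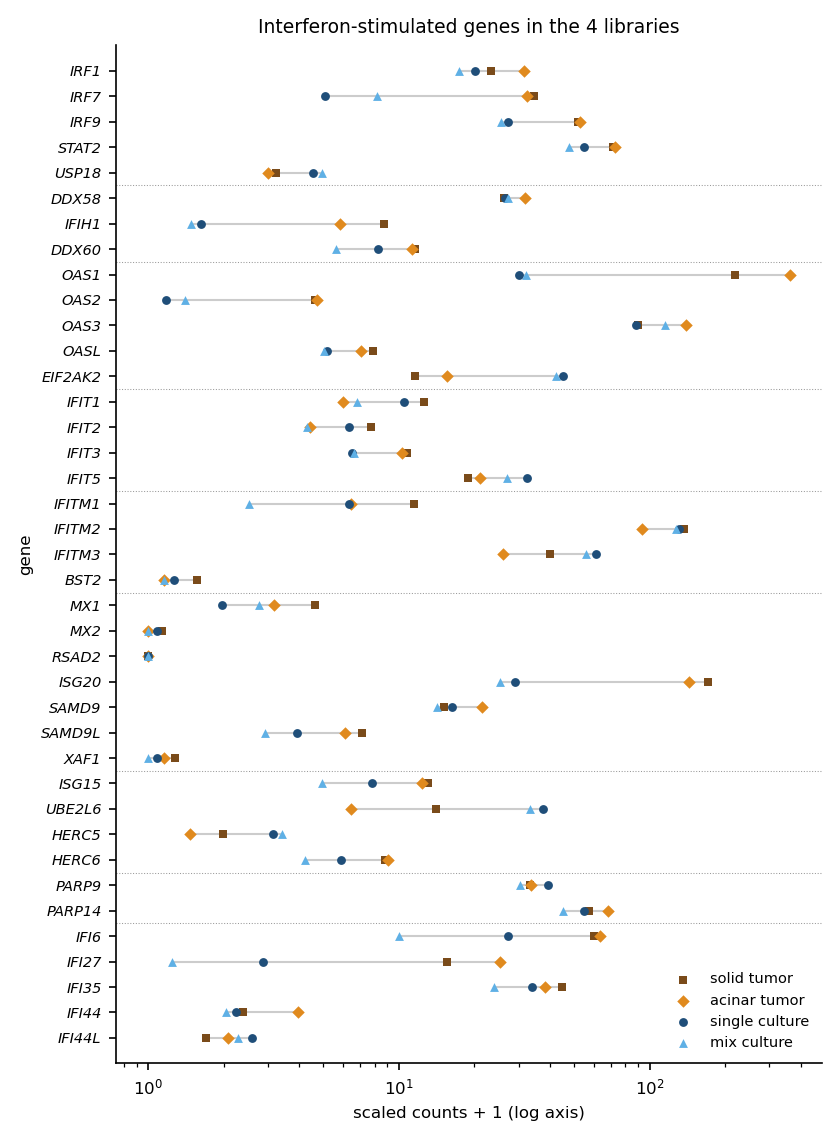
Level of each of the 39 genes in the 4 libraries, as scaled counts plus 1 on a log axis, with genes grouped by role between dotted lines and a grey bar from the lowest to the highest library. The brown and orange tumor symbols of OAS1, ISG20, IRF7 and IFI27 lie to the right of the blue culture symbols, and those of EIF2AK2 and UBE2L6 to the left; values of different genes are not corrected for length.

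Promoter windows were looked at because a factor complex of the type I response binds the ISRE. RefSeq (GRCh38.p14) windows of 300 bases, from 250 before to 50 after the annotated start, were found for 32 of the 39 genes. The core of the ISRE was searched on both strands as GAAA, NN and GAAA in a row, overlapping matches included. It was present in 20 of the 32 windows (62.5%), against 3.57% of 35116 windows of all genes, and 14 held it more than once. The core of the gamma-activated site, another interferon-responsive element, searched as TTCNNNGAA, was in 9 of the 32 (28.1%) against 7.66% of all windows; IFI35, OAS1, IRF1 and IRF9 held it without an ISRE core. The 4 windows below belong to the genes with an ISRE core whose level differed most within a pair of libraries, and show what the shared element looks like; capitals mark the core, read as TTTC, NN and TTTC where it lies on the other strand.
IFI6 (chr1:27672143-27672442, minus strand): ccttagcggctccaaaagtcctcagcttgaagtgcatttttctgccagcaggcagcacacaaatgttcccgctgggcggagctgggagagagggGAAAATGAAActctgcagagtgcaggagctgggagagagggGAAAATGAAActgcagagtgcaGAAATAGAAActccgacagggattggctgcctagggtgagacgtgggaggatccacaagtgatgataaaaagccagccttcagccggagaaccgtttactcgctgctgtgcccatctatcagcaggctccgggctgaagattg
IFITM1 (chr11:313790-314089, plus strand): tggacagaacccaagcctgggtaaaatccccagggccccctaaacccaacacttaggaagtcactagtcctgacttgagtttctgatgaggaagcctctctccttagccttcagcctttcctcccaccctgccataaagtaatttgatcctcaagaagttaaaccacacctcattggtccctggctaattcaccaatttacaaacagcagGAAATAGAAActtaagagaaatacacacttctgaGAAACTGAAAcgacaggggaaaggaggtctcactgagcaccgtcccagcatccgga
IFI27 (chr14:94110486-94110785, plus strand): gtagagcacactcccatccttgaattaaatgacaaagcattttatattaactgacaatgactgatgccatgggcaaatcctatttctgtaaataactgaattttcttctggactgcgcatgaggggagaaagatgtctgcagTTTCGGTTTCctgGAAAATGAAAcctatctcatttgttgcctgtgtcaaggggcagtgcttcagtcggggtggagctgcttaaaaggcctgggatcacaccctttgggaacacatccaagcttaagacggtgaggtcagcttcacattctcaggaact
IFIT1 (chr10:89392373-89392672, plus strand): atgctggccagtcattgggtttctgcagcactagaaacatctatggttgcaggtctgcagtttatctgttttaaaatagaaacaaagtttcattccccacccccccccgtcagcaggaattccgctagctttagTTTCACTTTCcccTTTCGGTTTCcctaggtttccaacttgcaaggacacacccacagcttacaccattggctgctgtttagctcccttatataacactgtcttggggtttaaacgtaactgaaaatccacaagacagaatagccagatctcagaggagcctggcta

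IFI6 held 3 cores, which begin 156, 115 and 93 bases before the start, the first 2 of them the same 10 letters. IFI27 and IFIT1 each held a pair of cores close together, beginning 108 and 95 bases before the start in IFI27 and 116 and 103 before it in IFIT1, while the 2 cores of IFITM1 begin 40 and 6 bases before its start. A match is a description of letters in the window and not evidence that a factor was bound. Members with and without an ISRE core had like medians in each pair: on the log2 scale with a pseudocount of 1 they were 0.01 for 18 genes and 0.02 for 10 genes in the acinar against the solid tumor, and -0.20 and -0.20 for the mix against the single culture. The 3 members 2-fold or more lower in the mix culture all held the core, in a pair where 18 measured members held it and 10 did not. Of the 2 members 2-fold or more lower in the acinar tumor, IFIT1 held the core and UBE2L6 did not.

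The acinar tumor was compared with the solid tumor first. As a set the genes did not lean either way: on the log2 scale, 17 of the 34 genes that reached 1 scaled count in either library were below 0, against 49.2% of 13979 genes, and the median was -0.02 against 0.01 for all genes. With scaling by median of ratios 21 of 35 were below 0, against 52.9% of all genes, with IRF9, STAT2 and PARP9 less than 0.01 below it. UBE2L6 and IFIT1 were 2-fold or more lower in the acinar tumor on this scale, where 2.55% of all genes were, and 0 of the 34 was 2-fold or more higher, where 1.98% of all genes were. Both calls were lost with a pseudocount of 5, at -0.79 and -0.74. Beside these, the summed leukocyte markers were 239 scaled counts in the solid and 146 in the acinar tumor and the fibroblast markers 54.1 and 88.8. Of the 5 leukocyte markers measured in the tumors, CD68 (175 and 113), LYZ (49.4 and 23.9) and CD14 (9.65 and 2.64) were lower in the acinar tumor. PTPRC (1.26 and 1.40) and ITGAM (3.22 and 4.03) were higher. Of the 4 fibroblast markers measured there, LUM (19.6 and 55.4) and FAP (0.420 and 2.17) were 2-fold or more higher in the acinar tumor, and COL1A1 (32.3 and 30.7) and COL3A1 (1.12 and 0.310) were lower. The part of these markers in the differences was not tested. Counting intervals lay wholly below 1 for 8 genes and above 1 for 7, or 23.5% and 20.6% of the 34, against 16.7% and 18.3% of all genes with whole fragments.

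Of the 8 genes with an interval below 1 in the acinar tumor, 5 belong to the IFIT and IFITM families. IFIT1, which binds viral RNA that lacks the cap marks of the host, was at 11.6 and 4.96 scaled counts in the solid and acinar tumors and 9.51 and 5.80 in the single and mix cultures. It was 2.34-fold lower in the acinar than in the solid tumor (interval 1.54 to 3.64) and 1.64-fold lower in the mix than in the single culture (1.21 to 2.24), so that it was the lower one in each pair. IFIT2, its partner in RNA-binding complexes, was at 6.71, 3.41, 5.33 and 3.30 scaled counts in the same order, 1.97-fold (1.17 to 3.42) and 1.62-fold (1.07 to 2.46) lower. IFIT3, which stabilises IFIT1, behaved differently, at 9.79, 9.30, 5.51 and 5.64 scaled counts: the levels were close within each pair and higher in both tumors. IFIT5, at 17.9, 20.0, 31.5 and 25.9 scaled counts, was higher in both cultures than in either tumor. The members next to each other in the annotation therefore had unlike patterns, since IFIT2 stands beside IFIT3 and IFIT1 beside IFIT5 on chromosome 10.

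The IFITM genes encode small membrane proteins that hinder the fusion of virus and cell membranes, and IFITM2, IFITM1 and IFITM3 stand in a row on chromosome 11. They are close copies of each other, and which of them a fragment came from is uncertain. IFITM1 was at 10.5 and 5.43 scaled counts in the solid and acinar tumors and 5.33 and 1.53 in the single and mix cultures. It was 1.93-fold lower in the acinar tumor (1.28 to 2.98) and 3.49-fold lower in the mix culture (2.05 to 6.19). The mix culture stood apart as the lowest of the 4, with 19 fragments. IFITM3 was at 39.2, 25.0, 60.2 and 54.7 scaled counts, 1.57-fold lower in the acinar tumor (1.29 to 1.92), with both cultures above both tumors. IFITM2 was at 136 scaled counts in the solid tumor and 92.4 in the acinar tumor, 1.48-fold lower (1.33 to 1.64), and at 130 and 126 in the cultures, where the interval of the ratio included 1.

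ISG15 is a ubiquitin-like protein that is attached to other proteins by UBE2L6, its conjugating enzyme, with HERC5 as the main ligase. UBE2L6 was at 13 and 5.43 scaled counts in the solid and acinar tumors and 36.5 and 32.3 in the single and mix cultures. It was 2.40-fold lower in the acinar than in the solid tumor (1.61 to 3.64), and the lower of the cultures was 2.48-fold above the higher of the tumors (1.98 to 3.15). ISG15 itself went the other way between the settings, at 12.0, 11.3, 6.84 and 3.95 scaled counts, and was 1.73-fold lower in the mix than in the single culture (1.20 to 2.53). HERC5 was low throughout, at 0.979, 0.465, 2.13 and 2.42 scaled counts, and USP18, which removes ISG15 and damps the receptor, was at 2.24, 2.02, 3.56 and 3.95; for both genes the cultures were above the tumors. HERC6, next to HERC5 on chromosome 4, was at 7.83, 8.06, 4.89 and 3.22 scaled counts, higher in the tumors.

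The genes higher in the acinar tumor included OAS1 and OAS3 of the oligoadenylate synthetases, enzymes that sense double-stranded RNA and activate RNase L. OAS1, OAS3 and OAS2 stand in a row on chromosome 12. OAS1 was at 217 scaled counts in the solid tumor and 361 in the acinar tumor, 1.66-fold higher (1.56 to 1.78), against 29.1 and 31.2 in the single and mix cultures. OAS3 was at 89.2 and 139 scaled counts in the tumors, 1.56-fold higher in the acinar one (1.40 to 1.72), and at 86.9 and 114 in the cultures, 1.32-fold higher in the mix (1.21 to 1.43). OAS2 was at 3.64 and 3.72 scaled counts in the tumors, a ratio of 1.02 (0.563 to 1.85), and at 0.178 and 0.403, or 2 and 5 fragments, in the cultures. So OAS1 and OAS2 separated tumors from cultures and OAS3 did not. The related OASL was at 6.85, 6.05, 4.18 and 4.03 scaled counts. EIF2AK2, which encodes the kinase PKR that stops translation on double-stranded RNA, was at 10.6, 14.6, 44.0 and 41.2 scaled counts, with the cultures the higher pair.

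IFI27, a mitochondrial and nuclear membrane protein gene that is among the most strongly induced by interferon in many tissues, was 1.66-fold higher in the acinar tumor (1.29 to 2.15), at 24.2 against 14.5 scaled counts. Among the remaining members the intervals lay above 1 for the antiviral factor gene SAMD9 (20.5 against 14.1 scaled counts), the transcription factor gene IRF1 (30.5 against 22.4, and 19.0 and 16.4 in the single and mix cultures), EIF2AK2 and the ADP-ribosyltransferase gene PARP14 (67.4 against 56.2), and below 1 for the RNA sensor gene IFIH1 (4.81 against 7.69) and the exonuclease gene ISG20 (143 against 170). IFIH1 was 1.60-fold lower (1.01 to 2.57). IFI44 had a ratio of 2.11 from 10 and 19 fragments, with an interval of 0.932 to 5.07. The STAT2 and IRF9 levels were within counting error, at 70.5 and 71.5 scaled counts for STAT2 and 50.9 and 51.8 for IRF9.

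**Figure D2:**
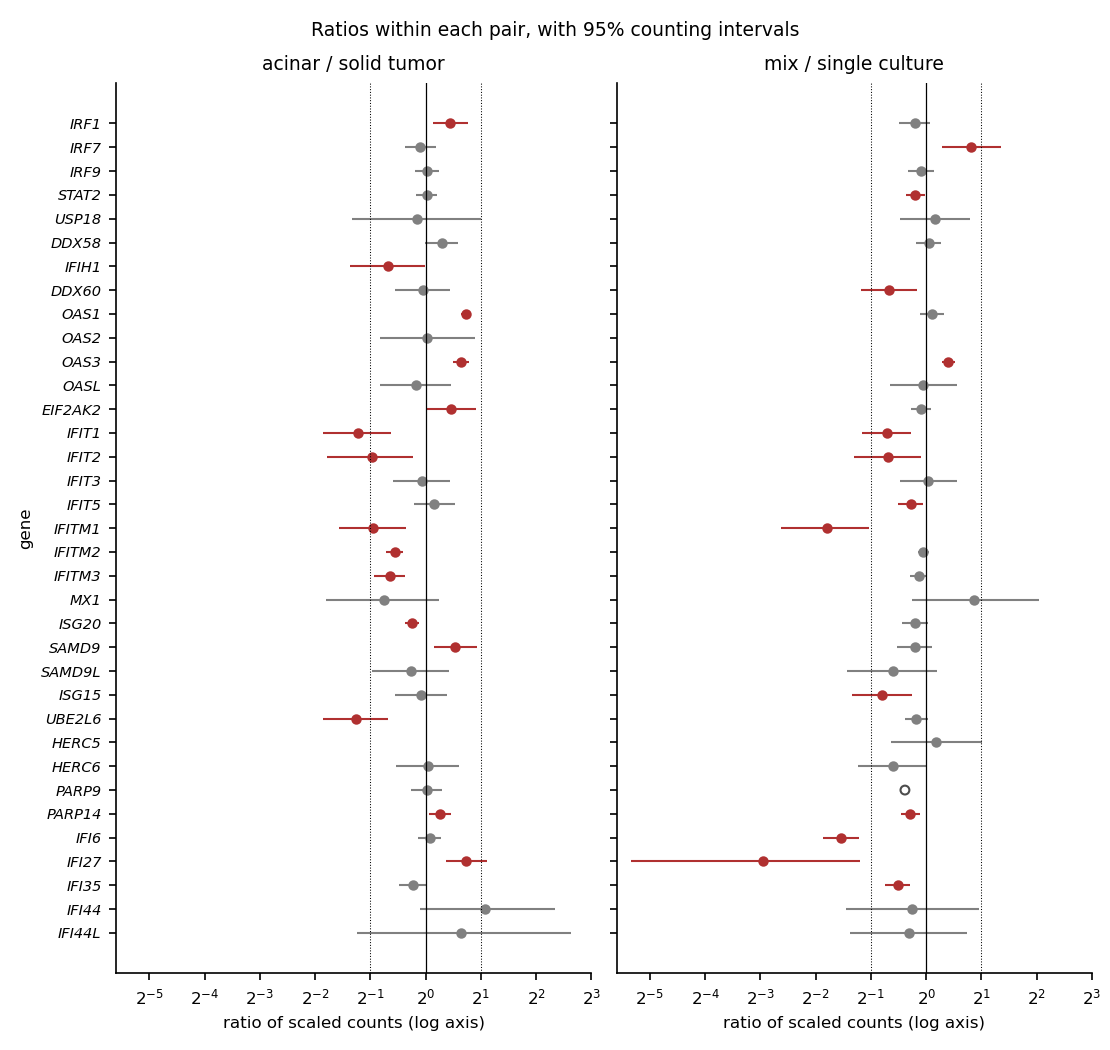
Ratio of scaled counts within each pair for the members at 1 scaled count or more in that pair, on a log axis; lines are 95% counting intervals, red where they exclude 1, and the open symbol is PARP9, whose fragments were not whole in the mix culture. IFIT1, UBE2L6 and the IFITM genes lie left of 1 in the left panel and OAS1, OAS3 and IFI27 right of it, while in the right panel IFI27, IFITM1 and IFI6 lie farthest left and IRF7 and OAS3 are the red points on the right.

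The mix culture was then compared with the single culture. Most of the genes were lower in the mix culture: 25 of 33 were below 0 on the log2 scale, where 48.0% of 13485 genes were, with a median of -0.19 against 0.01 for all genes. IFI6, IFITM1 and IFI27 were 2-fold or more lower, where 1.74% of all genes were, and 0 of the 33 was 2-fold or more higher, where 0.682% of all genes were. With a pseudocount of 5 only IFI6 passed the limit, IFITM1 being at -0.66 and IFI27 at -0.39. The counting interval lay below 1 for 11 of 32 genes with whole fragments (34.4%, against 20.4% of all such genes) and above 1 for 2 (6.25%, against 23.4%).

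IFI6, which encodes a small protein that protects cells from apoptosis and restricts some RNA viruses, had 3 ISRE cores in the window printed above. It was at 59.2 and 62.2 scaled counts in the solid and acinar tumors and 26.2 and 9.02 in the single and mix cultures. The mix culture was the lowest of the 4, 2.91-fold below the single culture (2.33 to 3.65), while the tumors were close to each other. IFI27 was at 1.87 and 0.242 scaled counts in the single and mix cultures, a ratio of 7.73 (2.31 to 40.5) that rests on 21 and 3 fragments. The 3 fragments are at the limit of detection, so the size of this difference is poorly fixed. IFI27 was thus higher in the acinar tumor and lower in the mix culture of its pair.

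The lower genes of the mix culture belonged to several roles. DDX60, a helicase that assists RNA sensing, was at 10.6, 10.2, 7.29 and 4.59 scaled counts in the order solid tumor, acinar tumor, single and mix culture, 1.59-fold lower in the mix than in the single culture (1.12 to 2.27). IFI35, which joins its partner NMI in signaling complexes, was at 43.8, 37.4, 33.0 and 23.0. PARP14 was at 56.2, 67.4, 53.7 and 44.0 scaled counts. Each of these 3 genes was lowest in the mix culture and higher in both tumors than in either culture. PARP9, a relative of PARP14, was at 32.3, 32.7, 38.4 and 29.4 scaled counts, with fragments in the mix culture that were not whole. SAMD9L was at 6.15, 5.12, 2.93 and 1.93, with an interval that included 1, and its neighbour SAMD9 on chromosome 7 at 14.1, 20.5, 15.3 and 13.2. IFI44 and IFI44L, neighbours on chromosome 1, were low in all: IFI44 was at 1.40, 2.95, 1.24 and 1.05 scaled counts and IFI44L at 0.699, 1.09, 1.60 and 1.29. In the order of the 4 libraries, the mix culture was the lowest for 19 of 35 genes (54.3%, against 25.8% of 14561 genes), and it was the highest for 2, USP18 and HERC5 (5.71%, against 26.6%). The solid tumor was the lowest for 4 genes and the highest for 14 (24.8% and 25.0% of all genes), the acinar tumor for 6 and 13 (25.4% and 26.8%), and the single culture for 6 and 6 (24.0% and 21.7%).

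Against this direction, IRF7, the transcription factor that amplifies interferon production, was 1.75-fold higher in the mix than in the single culture (1.21 to 2.56), at 7.17 against 4.09 scaled counts. OAS3 was the other gene with an interval above 1. The GTPase gene MX1 was at 1.77 against 0.978 scaled counts, from 22 and 11 fragments, with a ratio of 1.81 and an interval of 0.842 to 4.14, and at 3.64 and 2.17 in the solid and acinar tumors. The core of the signaling complex was close to level: IRF9 was at 24.5 against 26.2 scaled counts and STAT2 at 46.9 against 53.7, 1.15-fold lower (1.02 to 1.29). Fibroblast markers summed to 33.7 scaled counts in the mix and 23.1 in the single culture, and COL1A1, at 29.5 and 19.3, gave most of each sum. THY1 was also higher in the mix culture, at 2.01 against 1.33, while PDGFRA was lower, at 1.13 against 1.96. DCN, FAP and POSTN were listed at 0 in both cultures. The part of the fibroblast markers in these differences was not tested.

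Set side by side over the 32 genes measured in both pairs, 12 were below 0 in both (37.5%, against 26.0% of 12903 genes) and 3 were above 0 in both (9.38%, against 29.8%). The 12 were IFI35, IFIT1, IFIT2, IFITM1, IFITM2, IFITM3, DDX60, ISG15, ISG20, OASL, UBE2L6 and SAMD9L, and the 3 were OAS1, OAS3 and the RNA sensor gene DDX58 (RIG-I). DDX58 was the steadiest of the sensors, at 25.2, 30.9, 25.4 and 26.2 scaled counts in the solid tumor, acinar tumor, single and mix cultures. The pairs share no library.

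**Figure D3:**
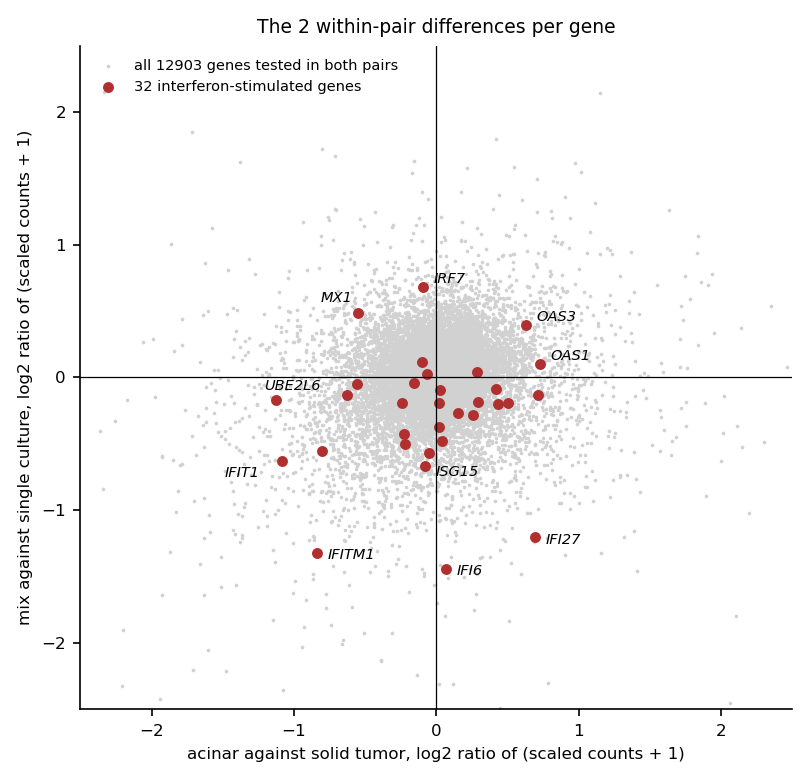
Log2 ratio of (scaled counts + 1) in the acinar against the solid tumor (horizontal) and in the mix against the single culture (vertical), with the 32 members in red over 12903 genes in grey; 23 genes lie outside the plotted range. Most red points lie below the horizontal line, IFI6, IFITM1 and IFI27 lowest, and they are spread to both sides of the vertical one.

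Tumors and cultures were compared by asking that both libraries of one setting lie above both of the other; the settings also differ in how the cells were isolated, microdissection against sorting, which cannot be told apart from growth in a mouse. Both tumors were above both cultures for 21 of the 35 genes (60.0%, against 39.8% of 14561 genes) and both cultures above both tumors for 7 (20.0%, against 38.7%). With a gap of 2-fold or more on the log2 scale between the nearest libraries, 7 genes were higher in the tumors (20.0%, against 9.67% of all genes) and 2 in the cultures (5.71%, against 8.22%). Without the single culture the count higher in the tumors was 13, where 12.7% of all genes were, and without the solid tumor the count higher in the cultures was 4, where 11.1% of all genes were.

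The 7 genes were OAS1, ISG20, IRF7, IFI27, IFIH1, OAS2 and IFI6. For OAS1 the lower tumor was 6.95-fold above the higher culture (6.22 to 7.79). ISG20, which degrades single-stranded RNA, was at 170 and 143 scaled counts in the tumors and 28.0 and 24.3 in the cultures, 5.11-fold apart (4.49 to 5.83). IRF7 was at 33.6 and 31.5 against 4.09 and 7.17, 4.39-fold apart (3.41 to 5.70). A gap between the settings was the rule by which the 7 genes were picked, and each setting is 2 single libraries of different conditions. IFIH1, which encodes the sensor MDA5 for long double-stranded RNA, was at 7.69 and 4.81 scaled counts against 0.622 and 0.483, or 55 and 31 fragments against 7 and 6. The nearest libraries were 7.73-fold apart (3.34 to 20.8). For IFI27 they were 7.79-fold apart (4.84 to 13.1), for OAS2 9.03-fold (3.41 to 30.1) and for IFI6 2.26-fold (1.94 to 2.63). The genes higher in the cultures were EIF2AK2, 2.83-fold apart (2.27 to 3.56), and UBE2L6.

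Members of the signaling core were also higher in the tumors by less: IRF9 was at 50.9 and 51.8 scaled counts against 26.2 and 24.5, and STAT2 at 70.5 and 71.5 against 53.7 and 46.9. Leukocyte markers were higher in the tumors by their sum, the 7 genes adding up to 239 and 146 scaled counts in the solid and acinar tumors against 49.8 and 43.6 in the single and mix cultures. Within that list CD68 and LYZ gave most of the sum, PTPRC was at 1.26 and 1.40 against 0.800 and 0.644 scaled counts, and CD14 was lower in the tumors, at 9.65 and 2.64 against 15.4 and 13.4. Of the 5 epithelial markers, EPCAM (20.3 and 28.1 against 2.31 and 2.09) and KRT7 (2232 and 3780 against 473 and 899) were also 2-fold or more higher in both tumors. Among 6 fibroblast markers measured, LUM was 2-fold or more higher in both tumors, at 19.6 and 55.4 against 0 and 0.0805. PDGFRA and THY1 were 2-fold or more higher in both cultures. Both were listed at 0 in the tumors, against 1.96 and 1.13 for PDGFRA and 1.33 and 2.01 for THY1. The 3 markers of plasmacytoid dendritic cells, the main interferon producers of blood, were listed at 0 in all 4 libraries. The host is a mouse and the genes carry human symbols, so these levels do not show how much host tissue was present, and the part of host cells in the tumor values was not tested.

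Per length, with scaled counts divided by the exonic length of each gene in GENCODE 29 (GRCh38, not the authors' annotation), IFITM2 had the highest level of the 39 in the solid tumor, the single and the mix culture, at 129, 123 and 119 scaled counts per kilobase. In the acinar tumor OAS1 and IFITM2 were close together at the top, at 87.8 and 87.4. OAS1 ranked 12 and 10 in the single and mix cultures, at 7.06 and 7.59 scaled counts per kilobase. IFI27 ranked 9 and 6 in the solid and acinar tumors, and 19 and 31 in the single and mix cultures. IFI44L, MX2, OAS2, RSAD2, BST2 and XAF1 were among the 8 lowest in all 4 libraries.

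The other genes of the pathway were read from lists of ligands, receptors with their kinases, sensors, inhibitors and further targets. In all, 20 of 21 interferon genes were below 1 scaled count in every library, and IFNB1, the first type I interferon made by most infected cells, was listed at 0 in all 4, where 3 fragments was the limit of detection. IFNE, which encodes the constitutive epithelial interferon epsilon, was the exception, at 14.3 and 13.6 scaled counts in the solid and acinar tumors and 4.62 and 4.11 in the single and mix cultures. It was higher in both tumors, with the nearest libraries 2.95-fold apart. All 11 receptor, kinase and STAT genes were at 1 scaled count or more in every library, and 0 of the 11 was past 2-fold in any comparison. IFNAR1 was at 52.0, 60.5, 58.6 and 54.7 scaled counts in the same order and IFNAR2 at 22.7, 26.2, 20.1 and 18.2. JAK1 was at 118, 148, 90.9 and 102 and TYK2 at 86.8, 81.6, 65.4 and 69.4.

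**Figure D4:**
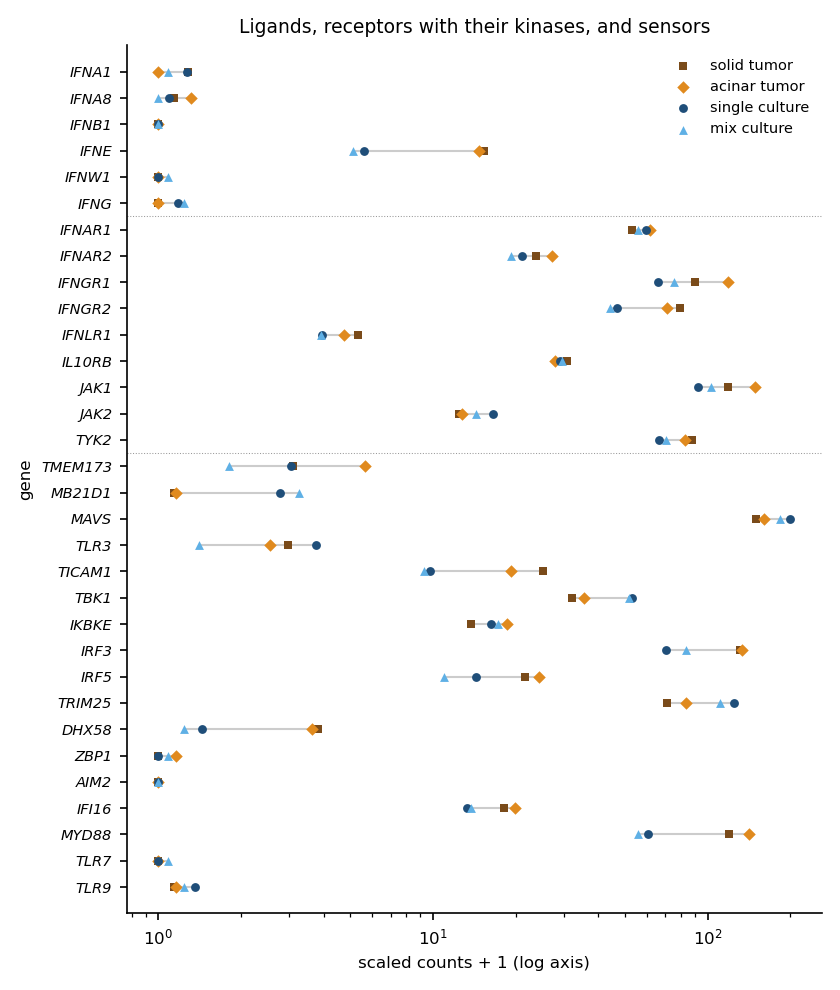
Levels of 6 interferon genes, 9 receptor and kinase genes and all 17 sensor and adaptor genes in the 4 libraries, as scaled counts plus 1 on a log axis; the interferon genes shown are IFNB1 and those above 0 in any library. IFNE is the only ligand away from the left edge, the receptor and kinase genes all lie away from that edge with 0 past 2-fold, and DHX58 and MB21D1 separate tumors from cultures in opposite directions.

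Among 17 sensors and adaptors, 0 was past 2-fold between the tumors on the log2 scale with a pseudocount of 1. TLR3, the endosomal receptor of double-stranded RNA, was 2-fold or more lower in the mix culture, at 0.403 against 2.76 scaled counts. TMEM173 was at 2.10, 4.65, 2.04 and 0.805 scaled counts in the solid tumor, acinar tumor, single and mix cultures. By simple quotient it was 2.22-fold higher in the acinar tumor (1.16 to 4.43) and 2.54-fold lower in the mix culture (1.16 to 5.98). DHX58, which encodes the RIG-I relative LGP2, was higher in both tumors, at 2.80 and 2.64 against 0.444 and 0.242 scaled counts. MB21D1, the gene of the DNA sensor cGAS, was higher in both cultures, at 0.140 and 0.155 against 1.78 and 2.25. IRF3, the factor these adaptors activate, was at 130, 132, 69.4 and 82.7, with fragments that were not whole in every library. Of 13 inhibitors, 0 was past 2-fold in either pair on the log2 scale with a pseudocount of 1. PIAS1 and SAMHD1 were 2-fold or more higher in both cultures. PIAS1 was at 19.3, 16.3, 48.3 and 40.3 scaled counts in the solid tumor, acinar tumor, single and mix cultures. SAMHD1 was at 3.14, 3.88, 24.1 and 22.1, with fragments that were not whole in the solid tumor and the mix culture. SOCS1, which blocks the receptor's kinases, was at 0.839, 2.64, 0.889 and 0.886 scaled counts. It was at 0.98 on the log2 scale in the acinar against the solid tumor. By simple quotient it was 3.14-fold higher there (1.18 to 9.73), from 17 and 6 fragments.

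Of 28 further interferon-induced genes 25 were measured in the mix against the single culture; 18 were below 0, where 48.0% of all genes were, and TRIM22, a ubiquitin ligase gene, was 2-fold or more lower, at 1.53 against 4.09 scaled counts. In the acinar against the solid tumor 11 of 25 were below 0, where 49.2% of all genes were, and 0 was past 2-fold. SP100, a nuclear body protein gene, was 2-fold or more higher in both tumors than in both cultures, at 55.5 and 48.5 against 23.0 and 22.9 scaled counts. Of 14 genes typical of interferon gamma, 5 were listed at 0 in each tumor. GBP2 and GBP3, guanylate-binding proteins, were higher in both tumors, GBP2 being at 30.6 and 29.8 against 11.6 and 4.99 scaled counts and GBP3 at 38.0 and 31.6 against 7.82 and 5.31. GBP2 was also 2.31-fold lower in the mix than in the single culture (1.70 to 3.18). CIITA, the switch of MHC class II genes, was listed at 0 in both tumors and was at 3.38 and 1.69 scaled counts in the cultures. The adhesion gene ICAM1 was 3.56-fold higher in the acinar than in the solid tumor (1.92 to 7.03), at 6.98 against 1.96. In the single and mix cultures ICAM1 was at 6.22 and 6.28 scaled counts, so that the solid tumor was the lowest of the 4 libraries.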

How the data were processed

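The authors deposited a signal value for each of 26255 genes in each library, per the file headers. Cuffdiff 2.2.1, TopHat2 2.0.13, SAMtools 1.0, Bowtie2 2.2.3 and hg19 are listed, with no role, in the submitters' processing notes; their annotation and use of strand were not given in the sources used here. Between 90.0% and 91.1% of values above 0 were whole multiples, within 0.05, of 1 step per library, and were read as fragments; 38 of the 39 members had whole fragments throughout. All values were divided by 8.94 to give scaled counts. Log2 ratios used a pseudocount of 1 over genes at 1 scaled count or more in a library compared, and the limit was 2-fold on that scale, which understates differences of low genes. Intervals used SciPy 1.17.1; without molecular identifiers, fragments cannot be taken for separate molecules. The calculations were tested on simulated data. Members and lists were chosen with earlier results of these data known. The rule for named genes gives full values for members past 2-fold in a comparison, or at a ratio of 1.5 or more with an interval excluding 1, and for related genes past 2-fold. Without a known strand setting, a gene and its antisense partner cannot be told apart. Sequences are from RefSeq (GRCh38.p14); no hg19 coordinates were used.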

Additional observations from a re-analysis of the deposited data

Results flagged for a closer look

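For 2 members the acinar against solid difference and the mix against single difference ran in opposite directions, each with a counting interval that excluded 1. IFI27 had a ratio of 1.66 in the acinar against the solid tumor and 0.129 in the mix against the single culture, the latter from 3 and 21 fragments. PARP14 had ratios of 1.20 and 0.819 in the same order. With 1 library per group the difference between the pairs was not tested.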

How the results depend on the processing

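Alternatives were a pseudocount of 0.1 or 5, a filter of 5 scaled counts or none above 0, scaling to the library total or by median of ratios, only genes with whole fragments, and a 1.5-fold limit. In the acinar against the solid tumor, the count 2-fold or more higher (0) became 1 with a pseudocount of 0.1 (IFI44, at 1.02) and 4 at 1.5-fold, and the count lower (2) became 0 with a pseudocount of 5 and 5 at 1.5-fold. In the mix against the single culture, the count lower (3) became 1 with a pseudocount of 5 and 5 at 1.5-fold, and the count higher (0) became 1 at 1.5-fold. Between tumors and cultures, the count higher in the tumors (7) became 11 at 1.5-fold, where 18.1% of all genes were. Leaving out each of the 4 libraries in turn, an alternative chosen after seeing the data, gave 7 to 13 genes higher in the tumors (11.6% to 13.4% of all genes) and 2 to 4 higher in the cultures (10.6% to 11.1%). The other 46 counts stayed within 1.5 times the reported one, and no gene past 2-fold turned its direction. At 1.5-fold the share of all genes past the limit also grew, to 6.34% higher and 8.07% lower in the acinar tumor and 3.31% higher and 6.83% lower in the mix culture. No paired analysis was possible because each group has 1 library. Depth limits IFI27 in the mix culture (3 fragments), OAS2 in the cultures (2 and 5) and IFIH1 there (7 and 6).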
